A study of Mus musculus with 9 samples.

Results

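Expression of the neurotrophins and their receptors was examined in the paraventricular nucleus of the hypothalamus (PVN) of mice on control chow, on a high-fat diet (HFD), or on HFD with minocycline. The set was chosen by gene symbol and holds 6 of the 27179 genes in the count table. It has the ligands Bdnf (brain-derived neurotrophic factor) and Ntf3 (neurotrophin 3), and the receptors Ntrk2 (TrkB), Ntrk3 (TrkC), Ngfr (p75NTR) and Sort1 (sortilin).

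Neurotrophins are secreted growth factors that are made as precursors and cleaved by furin and related convertases. Mature BDNF activates the receptor tyrosine kinase TrkB and mature neurotrophin 3 activates TrkC, while the uncleaved precursors bind p75NTR together with sortilin. In the hypothalamus, BDNF acting on TrkB is known as a restraint on food intake and body weight, and both the PVN and the ventromedial nucleus make BDNF.

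Bulk RNA sequencing was done on PVN punches from 9 male wild-type C57BL/6J mice, and the groups Control, HFD and HFD+Mino held 3 mice apiece. Fat supplied 16% of the calories in the chow of Control mice and 60% in the diet of HFD and HFD+Mino mice, and feeding lasted 12 weeks from 5 weeks of age. The labels give the age as 35 days after birth, which is the age at the start of the diet. HFD+Mino mice drank minocycline, a tetracycline antibiotic with anti-inflammatory action, at 40 mg/kg/day in their water for the last 6 weeks, and the other mice drank tap water. A punch is a small core of frozen tissue, so it can take in neighbouring tissue as well as the nucleus.

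The smallest library, HFD replicate 1, had 17728590 counts and the largest, Control replicate 1, had 42326213. Within a group, libraries differed well beyond sampling noise, with a chi-square of 21.0 to 316 for each degree of freedom. The labels and methods describe separate mice, so p-values measure the spread between mice. The libraries did not all carry the markers of the PVN to a like degree. Summed CPM (the usual scaling of counts to library size, here with TMM factors) of Sim1, Avp, Oxt, Crh and Trh was 27.8, 931 and 2559.9 in Control replicates 1 to 3. It was 2478 to 3725 in HFD, and 37725, 31917 and 3103 in HFD+Mino replicates 1 to 3. Control replicate 1 was low in Avp (6 counts), Oxt (31), Sim1 (31) and Trh (221 counts), but had 829 counts of Crh, whose 20.6 CPM were not below those of Control replicate 2 (18.04 CPM) and HFD replicate 1 (14.4 CPM). HFD+Mino replicates 1 and 2 had the highest sums. Summed oligodendrocyte markers were 29294 CPM in Control replicate 1 and 2234 to 6917 CPM in the other libraries, while summed astrocyte markers (4564 to 7103 CPM) and neuronal markers (4258 to 8705 CPM) overlapped between all groups. For several calls and lists that were changed by leaving out Control replicate 1 and HFD+Mino replicates 1 and 2 together, the value without these 3 libraries is given as well. That fit rests on 1 HFD+Mino library, which is assumed to vary like the other groups.

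**Figure D1:**
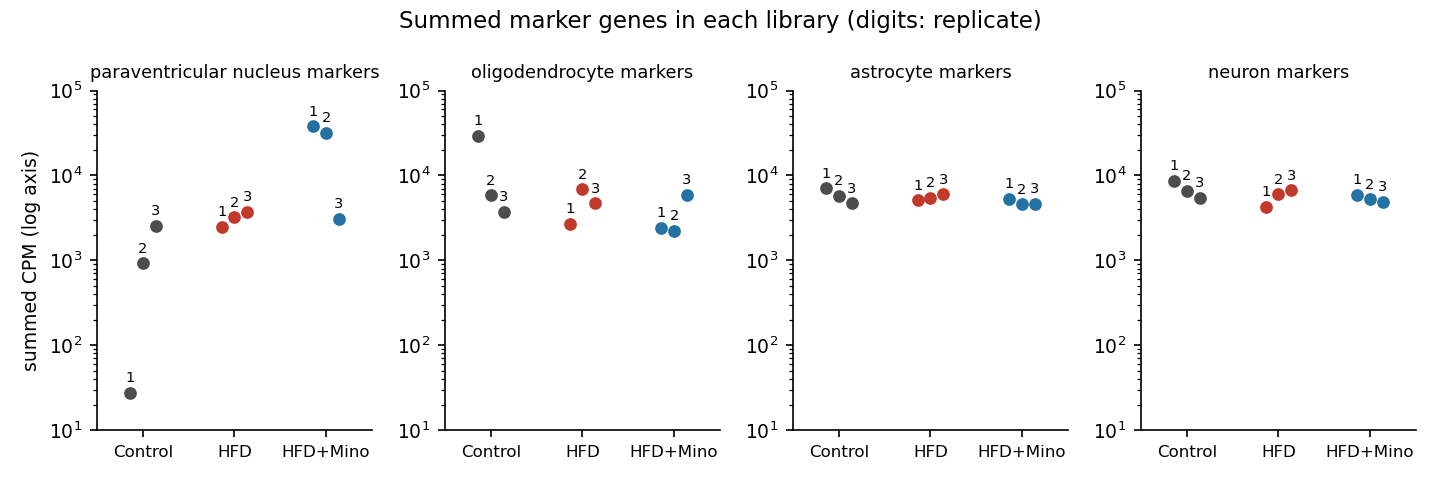
Summed CPM of marker genes of the PVN, oligodendrocytes, astrocytes and neurons (panels, log axis) in each library, with the replicate number above each point. PVN markers span 27.8 to 37725 CPM, with Control replicate 1 lowest and HFD+Mino replicates 1 and 2 highest, while astrocyte and neuronal sums of the 3 groups overlap.

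All 6 genes were matched to the GRCm38.p6 annotation (build of mm10). Bdnf lies at chr2:109674700-109727043 on the plus strand, Ntf3 at chr6:126101412-126166772 on the minus strand, and Ngfr at chr11:95568818-95587698 on the minus strand. Ntrk2 lies at chr13:58806472-59133970 on the plus strand, Ntrk3 at chr7:78179986-78581034 on the minus strand, and Sort1 at chr3:108283974-108361519 on the plus strand. The genes differ widely in exon length. The merged exons cover 19292 nt in Ntrk2 and 30170 nt in Ntrk3, longer than in 99.2% and 99.9% of the tested genes with a length, against 6217 nt in Bdnf, 7569 nt in Sort1, 3446 nt in Ngfr and 1714 nt in Ntf3. Ntrk2 and Ntrk3 encode both full-length receptors with a kinase and truncated forms without it, and Bdnf uses several first exons. Each deposited value is a sum over all forms of a gene, so these forms could not be told apart. Exons of Bdnf share 896 nt with Gm45346, and exons of Sort1 share 338 nt with Gm12523, each on the opposite strand. The kit does not mark strand, so reads from these overlaps cannot be assigned to one gene or the other.

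Bdnf is the member best known for control from its promoters, and a CREB binding site before the activity-regulated start is the usual example. RefSeq promoters were found for 4 of the 6 genes (7 starts for Bdnf, 2 for Ntf3, 1 for Ngfr and 1 for Ntrk2), and Ntrk3 and Sort1 are named only. Each promoter of 300 nt was searched on both strands for the CRE-like site TCACGTCA, the full CRE TGACGTCA, the E-box CACGTG and the GC box GGGCGG. The CRE-like site was found in 1 of the member promoters, 38 bases before a Bdnf start, and 0.441% of all 32851 promoters of that length hold it. The full CRE was found in 0 of the 11 member promoters, the E-box in 1 and the GC box in 6, and over all promoters the shares were 1.79%, 7.15% and 35.7%. The bases before that Bdnf start (chr2:109692186-109692435, plus strand, inside an intron of the longer Bdnf transcripts) are shown first, with the CRE-like site in capitals, because regulators of this site are among the genes described below. The bases before the annotated Ntrk2 start (chr13:58806319-58806471, plus strand) follow, since Ntrk2 is the member whose HFD libraries stood apart. These bases hold none of the 4 motifs, and no capitals are used there. The 1 GC box of the Ntrk2 promoter lies outside them, further downstream.
Bdnf: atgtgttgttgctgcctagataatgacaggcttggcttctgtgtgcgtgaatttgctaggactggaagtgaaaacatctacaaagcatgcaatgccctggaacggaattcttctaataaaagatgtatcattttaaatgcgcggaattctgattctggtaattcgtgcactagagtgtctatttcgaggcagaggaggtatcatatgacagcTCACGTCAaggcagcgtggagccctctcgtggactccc
Ntrk2: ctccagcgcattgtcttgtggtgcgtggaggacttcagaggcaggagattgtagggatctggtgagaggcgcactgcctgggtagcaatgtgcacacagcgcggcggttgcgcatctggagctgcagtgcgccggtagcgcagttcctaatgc

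Levels of different genes were compared per length, as CPM per kilobase of merged exon. Ntrk2 was the highest of the 6 genes in all 3 groups, with 19.8 ± 2.59 (SD, n = 3) CPM per kilobase in Control, 37.1 ± 2.17 after HFD and 19.4 ± 0.471 with minocycline. Sort1 came next in Control (9.51 ± 2.59) and HFD (5.69 ± 1.56), ahead of Bdnf (4.77 ± 1.79 and 4.55 ± 0.861). In HFD+Mino, Bdnf (7.01 ± 1.96) came ahead of Sort1 (6.23 ± 0.387). The libraries of Sort1 and Bdnf overlapped in every group, so the order of this pair does not exceed the spread between mice. Ntrk3 followed with 1.52 ± 0.468, 1.07 ± 0.0490 and 1.42 ± 0.260 CPM per kilobase, below every Sort1 and Bdnf library of its group. Ntf3 (0.312, 0.131 and 0.460) and Ngfr (0.180, 0.123 and 0.0527) were lowest and overlapped with each other. On the CPM scale, which rises with length, Ntrk2 stood above 98.4% of the tested genes, and Ngfr above 5.66%. Per kilobase, Ntrk2 stood above 84.8% and Ngfr above 4.11% of the tested genes with a length. The PVN punches therefore held abundant TrkB mRNA of all forms, moderate sortilin and BDNF mRNA, and very few reads for p75NTR and neurotrophin 3.

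The groups ask whether HFD changed these genes, whether minocycline changed them in HFD mice, and whether HFD+Mino differed from Control. They were addressed with edgeR's quasi-likelihood test over all 17344 genes that passed the filter on low counts, all 6 members included. A gene was called at a Benjamini-Hochberg adjusted p (FDR) under 0.01 and a change of at least 1.5-fold. In the 3-way test a gene was called where, in addition, HFD was the highest or lowest group by that fold from the mean of the 3 group log2 values. The comparisons of HFD with Control and of HFD+Mino with HFD share the HFD mice. By this rule 0 of 6 members were called in any of the 4 tests. Over all tested genes, 2.13% were called in the 3-way test. HFD against Control gave 1.74%, HFD+Mino against HFD gave 4.15%, and HFD+Mino against Control gave 0.0% (3697 genes at an unadjusted p under 0.05, and 271 called by DESeq2). At an unadjusted p under 0.05 there were 2, 2, 1 and 1 members in these 4 tests, against 39.0%, 20.5%, 41.3% and 21.3% of tested genes. DESeq2 called 1, 1, 1 and 0 members, against 13.5%, 6.84%, 22.4% and 1.56%. The gene that DESeq2 called was Ntrk2 each time. With the FDR limit at 0.05, Ntrk2 was likewise called in the first 3 tests, against 13.0%, 5.77% and 27.4% of tested genes, and 0.0% in the fourth. In these bulk samples a change in the number of cells of a type and a change in RNA per cell cannot be told apart.

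**Figure D2:**
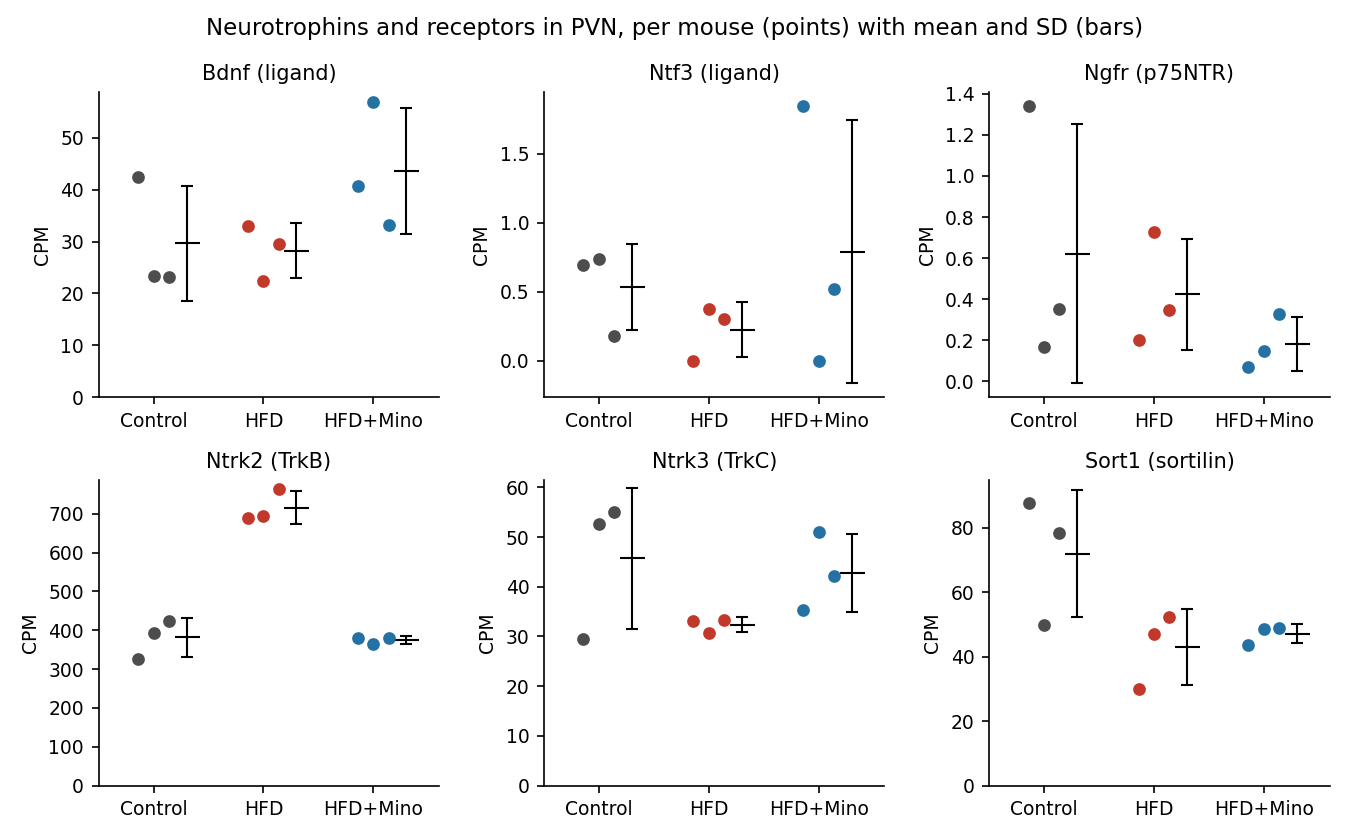
CPM of each neurotrophin and receptor gene (panels, linear axes with separate scales) in each mouse, with replicates 1 to 3 from left to right and the mean and SD of the 3 mice beside them. The 3 HFD points of Ntrk2 (689 to 764 CPM) sit above the 6 other libraries (327 to 424 CPM), and in the other 5 panels the HFD points overlap at least one other group.

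Among the ligands, Bdnf mRNA was present in every library. Bdnf was at 42.5, 23.3 and 23.1 CPM in Control replicates 1 to 3, at 32.9, 22.4 and 29.5 CPM in HFD and at 40.6, 56.9 and 33.1 CPM in HFD+Mino. The highest Control value came from replicate 1, the library with the lowest sum of PVN markers, and the lowest HFD+Mino library (33.1 CPM) was just above the highest HFD library (32.9 CPM). The log2 fold change of Bdnf was -0.07 (SE 0.31) between HFD and Control, with an FDR of 0.921 in edgeR's quasi-likelihood test. It was 0.62 (SE 0.31, FDR 0.148) between HFD+Mino and HFD, and 0.55 (SE 0.31, FDR 0.314) between HFD+Mino and Control. The sign between HFD and Control turned when Control replicate 1 was left out (log2 0.28), so a direction for HFD was not established. With Control replicate 1 and HFD+Mino replicates 1 and 2 all left out, the value between HFD+Mino and HFD was 0.19 (FDR 0.727).

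Ntf3 had few reads. It had 28, 26 and 6 counts in Control replicates 1 to 3, 0, 13 and 12 in HFD, and 54, 0 and 19 in HFD+Mino. The groups overlapped, and 1 library in each of HFD and HFD+Mino had no read of Ntf3, although the other libraries of those groups had 12 to 54. The log2 fold change of Ntf3 was -1.17 (SE 1.32) between HFD and Control and 1.73 (SE 1.33) between HFD+Mino and HFD. With FDRs of 0.651 and 0.352 in edgeR's test, no difference was detectable at this depth. The value between HFD+Mino and HFD rested on single libraries, at 0.18 (FDR 0.9497) without HFD+Mino replicate 1 and 2.30 (FDR 0.160) without HFD+Mino replicate 2.

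Of the receptors, Ntrk2 gave the clearest separation of groups. TrkB is the kinase receptor of BDNF, and its truncated form is abundant in astrocytes. Ntrk2 was at 327, 394 and 424 CPM in Control replicates 1 to 3, at 689, 694 and 764 CPM in HFD, and at 381, 365 and 379.8 CPM in HFD+Mino. All HFD libraries lay above all libraries of both other groups, while Control and HFD+Mino overlapped. Group means were 382 ± 50.02 (SD, n = 3), 715 ± 41.9 and 375 ± 9.10 CPM. The same separation, 3 HFD libraries above the 6 others, was found for 13.4% of tested genes, and 9.62% had the 3 HFD libraries below the others. Ntrk2 was the only one of the 6 members with either pattern, against 23.0% of tested genes.

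The log2 fold change of Ntrk2 was 0.91 (SE 0.19) between HFD and Control, a level 1.87-fold higher in HFD, with an FDR of 0.0202 in edgeR's quasi-likelihood test. Between HFD+Mino and HFD it was -0.93 (SE 0.19), a level 1.91-fold lower, with an FDR of 0.0106. HFD+Mino and Control differed by -0.03 (SE 0.19, FDR 0.952). In the 3-way test HFD stood 0.61 (SE 0.11) above the mean of the 3 group log2 values with an FDR of 0.0140, and 3.36% of tested genes had a smaller p. Each of these FDRs was above 0.01, and so Ntrk2 was not called.

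The call on Ntrk2 depended on the model. In 1 alternative the replicate number was a term in Control and HFD+Mino. The labels give no such pairing, and deviations of equally numbered libraries of these groups correlated only weakly (0.14, 0.16 and 0.29). The term rests on these correlations of the same counts, so calls made with it, here and below, are no independent support. With this term, Ntrk2 was called in the 3-way test (FDR 0.00125), between HFD and Control (0.00347) and between HFD+Mino and HFD (0.00101). Ntrk2 was then the only member called, 1 of 6 in each test, against 13.2%, 6.22% and 25.6% of tested genes, and 0 of 6 were called between HFD+Mino and Control, against 3.18%. Without HFD+Mino replicate 3, edgeR called Ntrk2 in the 3-way test (FDR 0.00418) and between HFD+Mino and HFD (0.00528), where 13.4% and 21.4% of tested genes were called. Without Control replicate 1 it was called between HFD+Mino and HFD (0.00985), against 5.27%. With other single libraries left out, Ntrk2 had edgeR FDRs of up to 0.0856 in the 3-way test. They were up to 0.122 between HFD and Control and up to 0.0603 between HFD+Mino and HFD, so Ntrk2 also moved away from a call. Without the 3 libraries of extreme PVN marker level it was called in the 3-way test (FDR 0.00678) and between HFD and Control (log2 0.81, FDR 0.00755), with an FDR of 0.0157 between HFD+Mino and HFD. In that fit 4.09%, 4.0% and 2.52% of tested genes were called.

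Exon length moved with the difference. Over the longest 10% of genes (9775 nt or more) the median log2 fold change was 0.48 between HFD and Control and -0.60 between HFD+Mino and HFD, against -0.27 and 1.10 over the shortest 10% (1704 nt or less). After a smooth trend on exon length was removed from every library, the value of Ntrk2 was 0.34 (SE 0.17, FDR 0.273) between HFD and Control and -0.29 (SE 0.17, FDR 0.244) between HFD+Mino and HFD. In that fit 0 of 6 members were called, against 2.15%, 2.39%, 2.7% and 0.0% of tested genes in the 4 tests. The trend was read at 19292 nt of merged exon for Ntrk2, whose longest transcript has 8744 nt. A trend on transcript length was not fitted. Length thus moved with the difference, and its part in the libraries as made was not tested. The share of Rn45s, a precursor of ribosomal RNA, also separated the groups, at 0.350 to 0.430% of counts in HFD and 0.0266 to 0.113% in the other libraries. With Rn45s, Rn18s and the mitochondrial genes left out, the log2 fold changes of Ntrk2 were 0.91 (FDR 0.0187) and -0.93 (FDR 0.0102). Of 10 astrocyte markers, 1 (Sox9) was called higher in HFD than in Control (log2 1.46, SE 0.23, FDR 0.0047), and the median of the 10 was 0.28. Of all 17344 tested genes, 55 were called higher in that comparison. Between HFD+Mino and HFD the median of the 10 was -0.89, with 3 above and 7 below 0. Of these markers, 1 was called lower there, against 2.16% of all tested genes. That median was -0.35 after removal of the length trend. The summed level of the astrocyte markers was 4690.1 to 7103 CPM in Control, 5133 to 6002 CPM in HFD and 4564 to 5303 CPM in HFD+Mino, so the sums overlapped between groups where Ntrk2 did not. Summed markers of oligodendrocyte precursors were lower in every HFD+Mino library (109.7 to 207 CPM) than in HFD (285 to 362 CPM). Of these 5 markers, 4 were below and 1 above 0 there, and 2 were called lower, against 2.16% of all tested genes. In the 3-way test 2 were called higher and 1 lower, against 2.13% called. Between HFD and Control 1 was called higher and 1 lower, against 1.74% called. Summed markers of ependyma and choroid plexus were higher in HFD+Mino than in HFD (211 to 431 against 102 to 188 CPM). The latter sum was 8.67 to 91.4 CPM in Control, below every HFD library, and that of mural cells and fibroblasts was higher in Control (62.8 to 118 CPM) than in HFD (49.4 to 59.5 CPM). All 8 markers of neighbouring nuclei were below 0 between HFD and Control, with a median of -1.22, though their sums overlapped (44.2 to 3411 CPM in Control and 18.01 to 47.4 CPM in HFD). The part of these cells in the results was not tested.

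Ntrk3, the receptor of neurotrophin 3 and the longest of the 6 genes, did not share the pattern of Ntrk2. Ntrk3 was at 29.5, 52.7 and 55.0 CPM in Control replicates 1 to 3, at 33.2, 30.7 and 33.3 CPM in HFD, and at 35.3, 50.9 and 42.2 CPM in HFD+Mino. Control replicate 1 was below all HFD libraries and the other Control libraries above them, while every HFD+Mino library was above every HFD library. The log2 fold change was -0.50 (SE 0.26) between HFD and Control and 0.40 (SE 0.26) between HFD+Mino and HFD, with FDRs of 0.313 and 0.270 in edgeR's test. Without the 3 libraries of extreme PVN marker level, Ntrk3 was at -0.73 (FDR 0.0234) between HFD and Control. Removal of the length trend made both values larger, at -1.12 (SE 0.23, FDR 0.0145) and 1.02 (SE 0.22, FDR 0.0159). The trend in that fit was read at 30170 nt of merged exon, while the longest Ntrk3 transcript has 19703 nt. With the replicate term added to that fit, Ntrk3 was called lower in HFD than in Control (-1.09, FDR 0.00323) and higher in HFD+Mino than in HFD (1.01, FDR 0.00215), where 5.21% and 16.1% of tested genes were called. It was called lower in HFD in the 3-way test as well (-0.70, FDR 0.00286), where 8.36% were called, and 0.0% between HFD+Mino and Control.

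**Figure D3:**
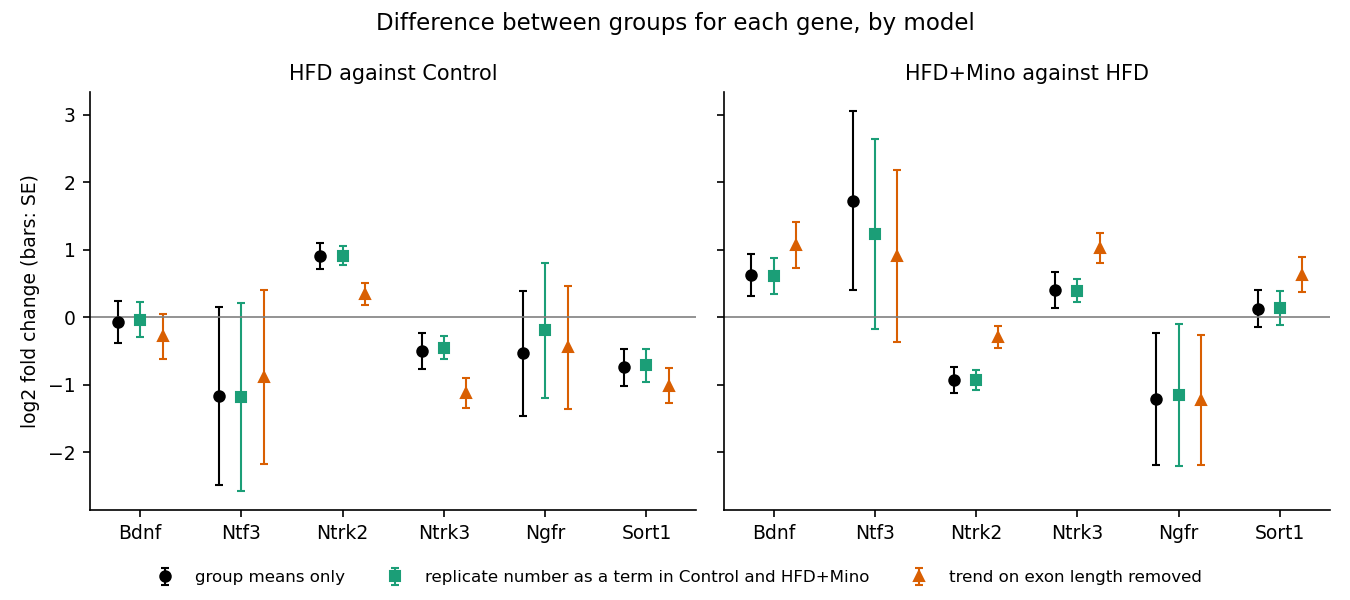
Log2 fold change with its SE (vertical axis) of each gene between HFD and Control (left) and between HFD+Mino and HFD (right), from the model with group means only, with the replicate number added, and with the trend on exon length removed. Ntrk2 moves from 0.91 to 0.34 and Ntrk3 from -0.50 to -1.12 on removal of the length trend in the left panel, and the sparse genes Ntf3 and Ngfr have the longest error bars.

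The ratio of both Trk receptors within a library needs no scaling between libraries. Each Ntrk3 count was accompanied by 11.1, 7.48 and 7.71 Ntrk2 counts in Control replicates 1 to 3, by 20.8, 22.6 and 23.0 in HFD and by 10.8, 7.16 and 8.999 in HFD+Mino. The HFD ratios were all above those of the other groups, which overlapped, with means of 8.76 ± 2.02 (SD, n = 3), 22.1 ± 1.19 and 8.98 ± 1.82. This ratio was chosen after the values had been seen and is given without a test. Bdnf per 1000 Ntrk2 counts was 54.5 to 130 in Control, 32.3 to 47.8 in HFD and 87.2 to 156 in HFD+Mino. Sort1 per 1000 Ntrk2 counts was 127 to 268 in Control, 43.4 to 68.7 in HFD and 115 to 133 in HFD+Mino. HFD libraries were lowest in both, and the Control and HFD+Mino ranges overlapped. Both ratios divide by Ntrk2, which was highest in every HFD library, so they say little about Bdnf or Sort1 themselves.

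**Figure D4:**
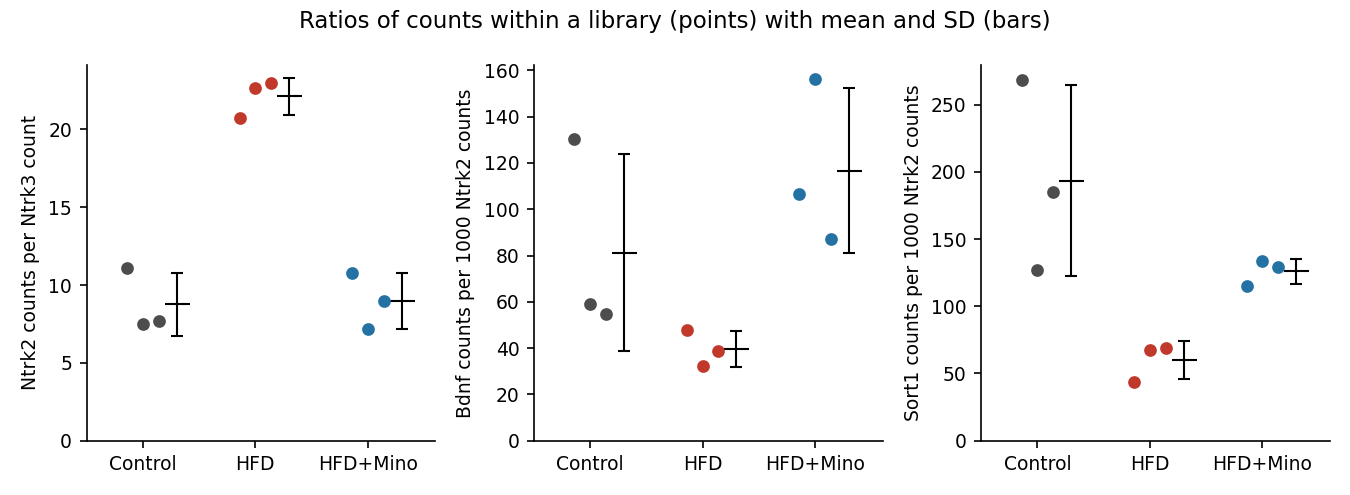
Ratio of counts within each library for Ntrk2 to Ntrk3, Bdnf to Ntrk2 and Sort1 to Ntrk2 (panels), with mean and SD of the 3 mice beside the points. HFD libraries hold 20.8 to 23.0 Ntrk2 counts per Ntrk3 count and the other 6 libraries 7.16 to 11.1, and the HFD points are lowest in the other panels, which divide by Ntrk2.

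Ngfr encodes p75NTR, which is sparse in the adult forebrain outside cholinergic neurons. Ngfr had 54, 6 and 12 counts in Control replicates 1 to 3, 4, 25 and 14 in HFD, and 2, 4 and 12 in HFD+Mino. The groups overlapped, and the highest count came from Control replicate 1. Its log2 fold change was -0.53 (SE 0.93, FDR 0.786) between HFD and Control and -1.20 (SE 0.98, FDR 0.377) between HFD+Mino and HFD. The first of these turned to 0.71 without Control replicate 1, and no difference was detectable with these counts.

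Sort1 encodes sortilin, which sorts neurotrophin precursors inside the cell and joins p75NTR at the surface. Sort1 was at 87.6, 49.9 and 78.4 CPM in Control replicates 1 to 3, at 29.9, 46.9 and 52.5 CPM in HFD and at 43.8, 48.6 and 49.1 CPM in HFD+Mino. Control replicates 1 and 3 were above all other libraries, and Control replicate 2 lay within the range of HFD. The log2 fold change of Sort1 was -0.74 (SE 0.27) between HFD and Control and -0.61 (SE 0.27) between HFD+Mino and Control, with FDRs of 0.150 and 0.226 in edgeR's test. HFD+Mino and HFD differed by 0.13 (SE 0.27, FDR 0.750). Without Control replicate 1, the Control library with the most Sort1, the value between HFD and Control was -0.58 (SE 0.30, FDR 0.458).

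The genes whose profiles were nearest to each member were found by the root mean square difference of log2 CPM over the 9 samples, each profile centred on its own mean. Nearest to Ntrk2 were 1810013L24Rik (0.0916) and Fyco1 (0.0958), where the median over all genes was 0.707. Nearest to Bdnf were Abcg2 (0.171) and 9630014M24Rik (0.173), and nearest to Sort1 were Kif13a (0.167) and Dennd5a (0.168). Nearest to Ntrk3 were Pcdh19 (0.149) and Ctbp2 (0.157). For the sparse genes the nearest profiles were farther away, with Lpar1 (0.380) and Frmd8 (0.409) for Ngfr and Gm4371 (0.615) and Adam4 (0.681) for Ntf3. These are descriptions of 9 points per gene that share library and depth.

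The rest of the pathway was described by 6 lists with 71 genes, of which 70 passed the filter. In the 3-way test 1 of the 70 genes was called, higher in HFD, and between HFD+Mino and HFD 4 were called, all lower in HFD+Mino. Over all tested genes, 0.917% were called higher in the 3-way test and 2.16% lower between HFD+Mino and HFD. DESeq2 called 14 of the 70 in the former (11 higher and 3 lower) and 17 in the latter (3 higher and 14 lower), and 30 and 31 had an unadjusted p under 0.05. Over all tested genes DESeq2 called 13.5% and 22.4%, and 39.0% and 41.3% had such a p. HFD against Control gave 0 calls among the 70 genes by edgeR, and so did HFD+Mino against Control. At an unadjusted p under 0.05 there were 23 and 13 of the 70 in these comparisons, against 20.5% and 21.3% of all tested genes. DESeq2 called 10 and 1 of the 70, against 6.84% and 1.56%. The fit without the 3 libraries of extreme PVN marker level rests on 1 HFD+Mino library, so its calls among the 70 are not counted here.

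All 4 called genes came from the 19 adaptors and effectors of Trk receptors. Kidins220, a scaffold that binds Trk receptors in the membrane, was at 110 to 186 CPM in Control, 295 to 334 CPM in HFD and 95.3 to 149.6 CPM in HFD+Mino. Its log2 fold change between HFD+Mino and HFD was -1.39 (SE 0.25, FDR 0.00785). Frs2, the docking protein that links activated Trk receptors to the Ras pathway, was at 18.7 to 34.6, 48.0 to 54.3 and 16.3 to 17.2 CPM in Control, HFD and HFD+Mino. Frs2 fell by 1.63 on the log2 scale (SE 0.26, FDR 0.00426) between HFD and HFD+Mino, and HFD stood 0.90 (SE 0.14, FDR 0.00784) above the mean of the groups in the 3-way test. HFD libraries of Frs2 and Kidins220 lay above all others, as did those of Crkl, while Gab2 overlapped between HFD and Control. Crkl, an adaptor of the Crk family, was at 31.2 to 58.6 CPM in Control, 60.3 to 82.6 CPM in HFD and 18.7 to 33.9 CPM in HFD+Mino (log2 -1.63, SE 0.32, FDR 0.00935). Gab2, a docking protein that recruits phosphatidylinositol 3-kinase, was at 12.2 to 19.1 CPM in Control, 17.5 to 22.7 CPM in HFD and 5.53 to 9.07 CPM in HFD+Mino (log2 -1.495, SE 0.29, FDR 0.00918).

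These calls were near the threshold. Each of the 4 was lost when any 1 HFD library or HFD+Mino replicate 1 was left out, with FDRs of up to 0.0290 for Frs2, 0.0459 for Kidins220, 0.0504 for Crkl and 0.0534 for Gab2. Crkl and Gab2 were also lost without Control replicate 2, as was Kidins220, and Frs2, Crkl and Gab2 without HFD+Mino replicate 2. On removal of the length trend none was called, with log2 fold changes of -1.09 for Frs2, -0.85 for Kidins220, -1.33 for Crkl and -1.09 for Gab2 and FDRs of 0.0106, 0.0200, 0.0101 and 0.0151. With the replicate term added to that edgeR fit all 4 were called lower, with FDRs of 0.00319, 0.00404, 0.000677 and 0.00328 in the same order. That fit called 3 genes of the list higher and 5 lower between HFD+Mino and HFD, against 16.1% of all tested genes. Over the whole list of 19, 5 genes were above and 14 below 0 between HFD+Mino and HFD, with a median of -0.58 where the median of all tested genes was 0.01. The median of the list was -0.16 after the length trend was removed. Without the 3 libraries of extreme PVN marker level the median of the list was -0.43. The values of Frs2, Kidins220, Crkl and Gab2 between HFD+Mino and HFD were then -1.69, -1.55, -1.17 and -1.14. Kidins220 kept its call there, while Frs2, Crkl and Gab2 lost theirs. Frs2 also lost its call in the 3-way test, at 0.88. That fit rests on 1 HFD+Mino library, so its calls over the list are not counted here. With the replicate term, 1 gene of the list was called higher and 5 lower between HFD+Mino and HFD, and 4 higher and 2 lower in the 3-way test. Of all tested genes, 12.7% were then called lower in the former and 7.76% higher in the latter.

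Among 7 other ligands and receptors of the family, edgeR called 0 in any test, 4 had an unadjusted p under 0.05 between HFD+Mino and HFD, and DESeq2 called 3 there, all lower. Of all tested genes, 41.3% had such a p and DESeq2 called 10.1% lower. Ntf5, a further ligand of TrkB, had at most 15 counts in any library, and its groups overlapped. Sorcs2, a sorting receptor that pairs with p75NTR for the BDNF precursor, was at 17.5 to 42.6 CPM in Control, 72.8 to 79.4 CPM in HFD and 24.6 to 35.1 CPM in HFD+Mino. Its values of 1.41 (SE 0.30, FDR 0.0217) between HFD and Control and -1.36 (SE 0.30, FDR 0.0129) between HFD+Mino and HFD missed the threshold, although its HFD libraries lay above all others. Without Control replicate 3, Sorcs2 was called in both (FDR 0.00598 and 0.00652). Sorcs3, of the same family, had a log2 fold change of -1.07 (SE 0.25, FDR 0.0150) between HFD+Mino and HFD. With the replicate term, 2 genes of this list were called higher in the 3-way test and 3 lower between HFD+Mino and HFD, against 7.76% and 12.7% of all tested genes.

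**Figure D5:**
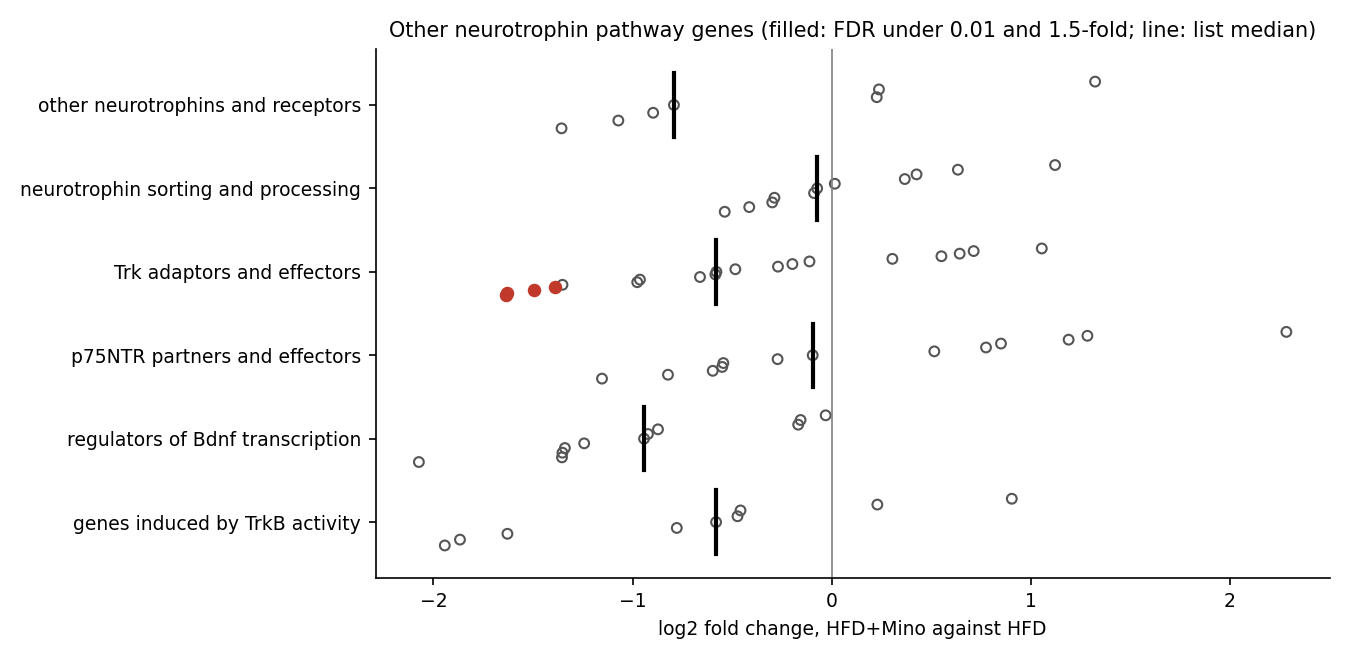
Log2 fold change between HFD+Mino and HFD (horizontal axis) of each tested gene in the 6 lists of other pathway genes (rows), with a vertical line at each list median and filled points for called genes. The 4 filled points, Frs2, Crkl, Gab2 and Kidins220, are all Trk adaptors and effectors between -1.63 and -1.39, and all 11 regulators of Bdnf transcription lie below zero.

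The 11 tested genes for sorting and cleavage of neurotrophin precursors had 0 calls in every test by edgeR. DESeq2 called 1 lower in HFD than in Control, and 1 had an unadjusted p under 0.05 there. Of all tested genes, DESeq2 called 6.84% in that comparison, and 20.5% had such a p. Pcsk6, a convertase of the furin family, was at 12.8 to 22.8 CPM in Control, 3.01 to 7.63 CPM in HFD and 8.11 to 17.3 CPM in HFD+Mino, and its value of -1.66 (SE 0.41, FDR 0.0388) between HFD and Control was not called. Pcsk1, prohormone convertase 1, ran from 54.5 to 222 CPM in HFD+Mino and overlapped between groups. The 13 partners and effectors of p75NTR had 0 calls by edgeR, while DESeq2 called 3 between HFD+Mino and HFD, where it called 22.4% of all tested genes. An unadjusted p under 0.05 was found there for 6 of the 13, against 41.3% of all tested genes. Among them Rtn4r, the Nogo receptor that forms a complex with p75NTR, was at 7.75 to 11.7 CPM in Control, 1.15 to 3.16 CPM in HFD and 4.83 to 16.3 CPM in HFD+Mino. Its log2 fold changes were -2.01 (SE 0.49, FDR 0.0348) and 2.28 (SE 0.49, FDR 0.0118), and it was called in the latter comparison without HFD+Mino replicate 2 (FDR 0.00810). Bex3, which binds the death domain of p75NTR, was at 442 to 496 CPM in HFD and 692 to 1300 CPM in HFD+Mino, a value of 1.19 (SE 0.27, FDR 0.0132) that was called without HFD+Mino replicate 3 (FDR 0.00123) and was 0.05 (FDR 0.865) after removal of the length trend. With the replicate term, 3 genes of the p75NTR list were called higher and 1 lower between HFD+Mino and HFD, where 25.6% of all tested genes were called. With the 3 libraries of extreme PVN marker level left out, the value of Rtn4r between HFD+Mino and HFD was 2.80, which rests on 1 HFD+Mino library.

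The 11 regulators of Bdnf transcription were also uncalled by edgeR in each test, with 7 at an unadjusted p under 0.05 between HFD+Mino and HFD and 4 called lower there by DESeq2, where 41.3% and 10.1% of all tested genes were. All 11 were below 0 in that comparison, with a median of -0.94. After removal of the length trend 10 were below 0 and the median was -0.60. Without the 3 libraries of extreme PVN marker level the median was -0.77. Creb1 encodes the factor that binds CRE sites such as the one printed above for Bdnf. Creb1 was at 15.7 to 21.4 CPM in Control, 42.8 to 49.3 CPM in HFD and 12.1 to 26.1 CPM in HFD+Mino. Its log2 fold changes of 1.36 (SE 0.29, FDR 0.0220) and -1.35 (SE 0.29, FDR 0.0121) were not called, and became calls without HFD+Mino replicate 2 (FDR 0.00566 and 0.00556) or replicate 3 (FDR 0.00787 and 0.00972). Both were also called without the 3 libraries of extreme PVN marker level, at 1.29 and -1.96. Creb1 has 13742 nt of exon, and its value between HFD+Mino and HFD was -0.74 (FDR 0.0591) after removal of the length trend. Mef2c, an activity-dependent factor of neurons, had values of 1.14 (SE 0.29, FDR 0.0427) and -1.24 (SE 0.29, FDR 0.0142), and was called in the second comparison without HFD+Mino replicate 3 (FDR 0.00255). Without the 3 libraries of extreme PVN marker level the values of Mef2c were 1.25 and -0.84, and the first was called. With the replicate term, 4 regulators were called higher in the 3-way test and 6 lower between HFD+Mino and HFD, against 7.76% and 12.7% of all tested genes. Bdnf itself, over the same libraries, had a value of -0.07 and then 0.62 on the log2 scale, neither of which was called.

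The 9 genes known to be induced by TrkB activity had 0 calls by edgeR. At an unadjusted p under 0.05 there were 1 of the 9 for HFD against Control, 2 for HFD+Mino against HFD and 4 for HFD+Mino against Control, where DESeq2 called 0, 1 and 0. Over all tested genes, 20.5%, 41.3% and 21.3% had such a p, and DESeq2 called 6.84%, 22.4% and 1.56%. Arc, an immediate early gene of synapses, was at 21.7 to 34.3 CPM in Control, 16.8 to 28.6 CPM in HFD and 1.60 to 10.6 CPM in HFD+Mino. Its value between HFD+Mino and HFD was -1.63 (SE 0.54, FDR 0.0446). Arc was called lower there by DESeq2 (-1.61, FDR 0.00999) and by edgeR with the replicate term (-1.91, FDR 0.00561). It was not called by edgeR with only the length trend removed (-1.78, FDR 0.0384). Fos was at 32.5 to 168 CPM in Control, 26.1 to 55.0 CPM in HFD and 12.5 to 43.5 CPM in HFD+Mino, with overlap between all groups. The median of the list was -0.58 between HFD+Mino and HFD and -0.25 between HFD and Control. With the replicate term the list had 2 lower calls in the first of these, where 12.7% of all tested genes were called lower. That term also gave 1 higher call in the 3-way test, against 7.76% called higher. Between HFD+Mino and Control it gave 1 lower call, against 3.18% called. In the model without that term the median between HFD+Mino and Control was -1.79, with 8 of 9 genes below 0. The median of all tested genes was -0.02 there. These values leaned on the libraries of extreme PVN marker level. Without those 3 libraries the median was 0.04 between HFD+Mino and HFD, with 5 genes above and 4 below 0, and -0.99 between HFD+Mino and Control, with 6 of 9 below 0. Fos was then called lower in HFD than in Control (-1.77, FDR 0.00492) and in the 3-way test (-0.60, FDR 0.00786).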

How the data were processed

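RNA of PVN punches from 9 mice was made into cDNA with a low-input kit (SMARTer), tagmented without strand marks and sequenced in 2 reads of 50 cycles. The authors deposited whole-number counts per gene for the 9 libraries in 1 table. The submitters' processing notes name HISAT2, featureCounts, edgeR and mm10 (GRCm38). Versions and counting settings are not given in the sources used here. Counts per gene rise with gene length and merge the transcript forms.

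Groups came from the sample titles. The 958 genes that have an ID but no symbol (0.0785 to 0.0932% of counts) were kept in the fit. Total counts were 17728590 to 42326213 per library, so counting error was small for all members but Ntf3 and Ngfr. Counts were fitted with edgeR 4.0.16 (R 4.3.3; TMM, filterByExpr, quasi-likelihood test, group means over all 9 libraries), with Benjamini-Hochberg adjustment over 17344 genes and calls at an FDR under 0.01 and at least 1.5-fold. SEs are the log2 fold change divided by the square root of F, and log2 CPM profiles carry a prior count of 2. Exon lengths, known for 90.1% of tested genes, came from the GRCm38.p6 annotation, promoter sequences from RefSeq of that build, and trends were lowess fits (span 0.3). The fitting step was tested on simulated data.

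Alternatives were DESeq2 1.42.0, RLE scaling, no filter, an FDR of 0.05, the replicate number as a block, removal of length or GC trends, removal of 17 abundant genes (Rn45s, Rn18s and mitochondrial), and each library left out. Leaving out 3 libraries with extreme PVN markers and the ratio of Ntrk2 to Ntrk3 were chosen after seeing the data. Deviations of equally numbered Control and HFD+Mino libraries from their group means correlated at 0.14, 0.16 and 0.29, while those with HFD libraries were -0.15 to -0.01. The labels give no pairing, so it rests on these weak correlations of the counts alone, and the block was put on Control and HFD+Mino. Summed PVN markers did not follow the pairing. They were 27.8 CPM in Control replicate 1, the lowest of its group, and 37725 CPM in HFD+Mino replicate 1, the highest of its group. The HFD columns carry other numbers than the HFD titles.

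The members, the pathway and marker lists and the tests were chosen with earlier results of these data known. All members were named, with Ntf5. Some items that this rule covers are not reported here. Of each list, up to 4 called genes were named, or else the 2 with the smallest FDR in the 3-way test, and for each member the 2 genes of nearest profile. Figures were drawn with matplotlib 3.10.9.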

Additional observations from a re-analysis of the deposited data

How the results depend on the processing

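No member was called by edgeR in the primary analysis. DESeq2, an FDR limit of 0.05, and the replicate block in Control and HFD+Mino each gave 1 called member, Ntrk2, in the 3-way test, between HFD and Control and between HFD+Mino and HFD. The block with the length trend removed also gave 1 in these tests, which was Ntrk3. Leaving out the 3 libraries with extreme PVN markers gave 1 in the first pair of these tests, and removal of the GC trend gave 1 between HFD+Mino and HFD, Ntrk2 each time. With single libraries left out the number ranged from 0 to 1 in the 3-way test and between HFD+Mino and HFD, and was 0 in both other tests. The replicate block in all 3 groups changed no member's call.

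Over all tested genes, the 3-way test called 369 genes, against 2342 with DESeq2, 1300 with no filter, 2258 at an FDR of 0.05, 2283 with the block in Control and HFD+Mino, 1450 with that block and the length trend removed, 653 with the GC trend removed and 774 without the 3 libraries. HFD against Control called 302, against 1186, 481, 1001, 1078, 903, 504 and 757 in the same order. HFD+Mino against HFD called 719, against 3878, 1905, 4757, 4441, 2799, 1550 and 476, with 1369 under the block in all 3 groups and 469 with the length trend removed. HFD+Mino against Control called 0, against 271 with DESeq2, 1 with no filter and 551 with the block in Control and HFD+Mino. Single libraries left out gave 3 (without HFD replicate 3) to 2397 (without HFD+Mino replicate 3) in the 3-way test and 59 (without HFD replicate 1) to 550 (without HFD+Mino replicate 3) between HFD and Control. They gave 29 (without HFD replicate 3) to 3815 (without HFD+Mino replicate 3) between HFD+Mino and HFD, and 0 to 1120 (without HFD+Mino replicate 3) between HFD+Mino and Control.

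Of 480 pairs of a member value and a setting, 17 changed sign, under 9 settings, none past the threshold, and the cause was not tested. Without the 3 libraries, Bdnf was 0.0340 in the 3-way test and 0.29 between HFD and Control, and Ngfr was 0.69 between HFD and Control and 0.27 between HFD+Mino and Control. Between HFD+Mino and Control, Ntrk2 was 0.0550 with the length trend removed and 0.0493 with the block added, where Ntf3 was -0.44. With single libraries left out, Bdnf ranged from -0.22 to 0.28 and Ngfr from -1.15 to 0.71 between HFD and Control. In the 3-way test Ngfr ranged from -0.19 to 0.64. Between HFD+Mino and HFD, Sort1 ranged from -0.0804 to 0.30. Between HFD+Mino and Control, Ntf3 ranged from -0.998 to 1.13, Ntrk2 from -0.13 to 0.0553 and Ntrk3 from -0.33 to 0.0571. The other changes of sign, without 1 library, were Bdnf at 0.07 between HFD and Control, and Ntrk3 at 0.01 and 0.02 between HFD+Mino and Control. The order of members by level per length changed in 2 places when the longest transcript set the length, and in 0 with single libraries left out. The 3 mice per group, the few counts of Ntf3 and Ngfr, and unequal PVN content of the punches limit these values.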
